A study of Mus musculus with 6 samples.

Results

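The BCL2 family controls the mitochondrial pathway of cell death, and 10 of its genes were examined here in mouse B cells that had or had not received bryostatin 1. The members were chosen by name as 4 survival genes (Bcl2, Bcl2l1, Mcl1 and Bcl2a1d) and 6 death genes (Bcl2l11, Pmaip1, Bmf, Bid, Bax and Bak1), out of 46316 gene symbols in the count table. Each gene was read from its transcript row with the highest mean count over the 6 samples. All 10 members had enough counts to be tested.

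Wild-type naive splenic B cells were cultured for 2 days with 500 ng/mL anti-CD40 antibody and 5 ng/mL IL-4, a combination that mimics T cell help. The IL-4 group (3 samples) received nothing else, and the IL-4 + bryostatin 1 group (3 samples) also received 0.8 nM bryostatin 1, an activator of protein kinase C. The study asked how this compound changes B cells that are switching towards IgE. Nothing in the labels tells whether replicates were separate animals or culture wells, and the p-values therefore describe the variation among these 6 samples, possibly technical.

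The proteins of this family act on the outer mitochondrial membrane. BAX and BAK are the effectors that make it permeable and release cytochrome c. BCL2, BCL-XL (from Bcl2l1), MCL1 and A1 (from the Bcl2a1 genes) hold the effectors and their activators in check. The BH3-only proteins BIM (from Bcl2l11), NOXA (from Pmaip1), BMF and BID bind the survival proteins or engage the effectors. B cells depend on this balance: BCL2 and BCL-XL keep them alive, BIM removes autoreactive cells, and signals through CD40 are known to raise BCL-XL and A1.

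Sequencing depth was similar in all samples, from 19959971 to 24896427 counts with 1 row taken per gene. The B cell markers Ms4a1, Cd79a, Cd79b, Pax5 and Cd22 were all present, and their summed level was 4718 to 4953 CPM (counts per 1000000 counts of the scaled library) with IL-4 and 3691 to 3945 CPM with bryostatin 1. The summed levels of other markers were far lower but differed between the groups, at 12.6 to 16.0 against 31.5 to 34.7 CPM for 8 myeloid markers and 16.5 to 17.8 against 41.0 to 43.8 CPM for 5 dendritic cell markers. The 7 T cell markers summed to 0.776 to 1.14 against 1.85 to 2.92 CPM, and the 5 NK cell markers to 0.284 to 0.502 against 0.647 to 1.42 CPM. Of the 5 plasma cell markers, 3 rose and 1 fell: Sdc1 went from a mean of 6.07 to 12.4 CPM, Prdm1 from 4.62 to 14.9 CPM and Jchain from 7.19 to 17.5 CPM, while Xbp1 went from 291 to 171 CPM. Their sum of 295 to 329 against 214 to 217 CPM is mostly Xbp1. The 5 red blood cell markers, of which Alas2 was at 0 in every sample, summed to 0.639 to 1.42 against 24.0 to 30.8 CPM, mostly Hbb-bt. The largest parts of the myeloid and dendritic cell differences were Adgre1, from a mean of 3.16 to 19.7 CPM, and Zbtb46, from 13.4 to 37.4 CPM. The rise was not shared by all markers of these lists. Of the 3 dendritic cell markers with enough counts to be tested, 2 rose and 1, Flt3, fell (log2 fold change -1.24). Of the 4 such myeloid markers, 2 rose and 2, Lyz2 and Itgam, did not reach an adjusted p under 0.05. The part of these markers in the results was not tested, and in bulk samples fewer cells of a type and less RNA per cell cannot be told apart.

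Bryostatin 1 was accompanied by higher RNA of most members on both sides of the family. By edgeR's quasi-likelihood test with Benjamini-Hochberg adjustment over 13863 genes, 3 of the 4 survival members rose and 1 fell, while 4 of the 6 death members rose, 1 fell and 1 did not pass. The change was wide across the whole transcriptome, since 58.1% of all genes tested passed the same threshold of an adjusted p under 0.05, 30.1% higher and 28.0% lower. The median log2 fold change was 0.52 over the survival members and 0.72 over the death members, beside 0.00 over all genes. For all 10 members, no sample of one group fell within the range of the other group, 8 higher and 2 lower with bryostatin 1, and the same held for 63.5% of all genes, 33.0% higher and 30.5% lower. Changes of at least 2-fold that passed the test were found for 4 members, against 10.6% of all genes. Those 4 were Bcl2l11, Bcl2l1, Pmaip1 and Bmf.

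**Figure D1:**
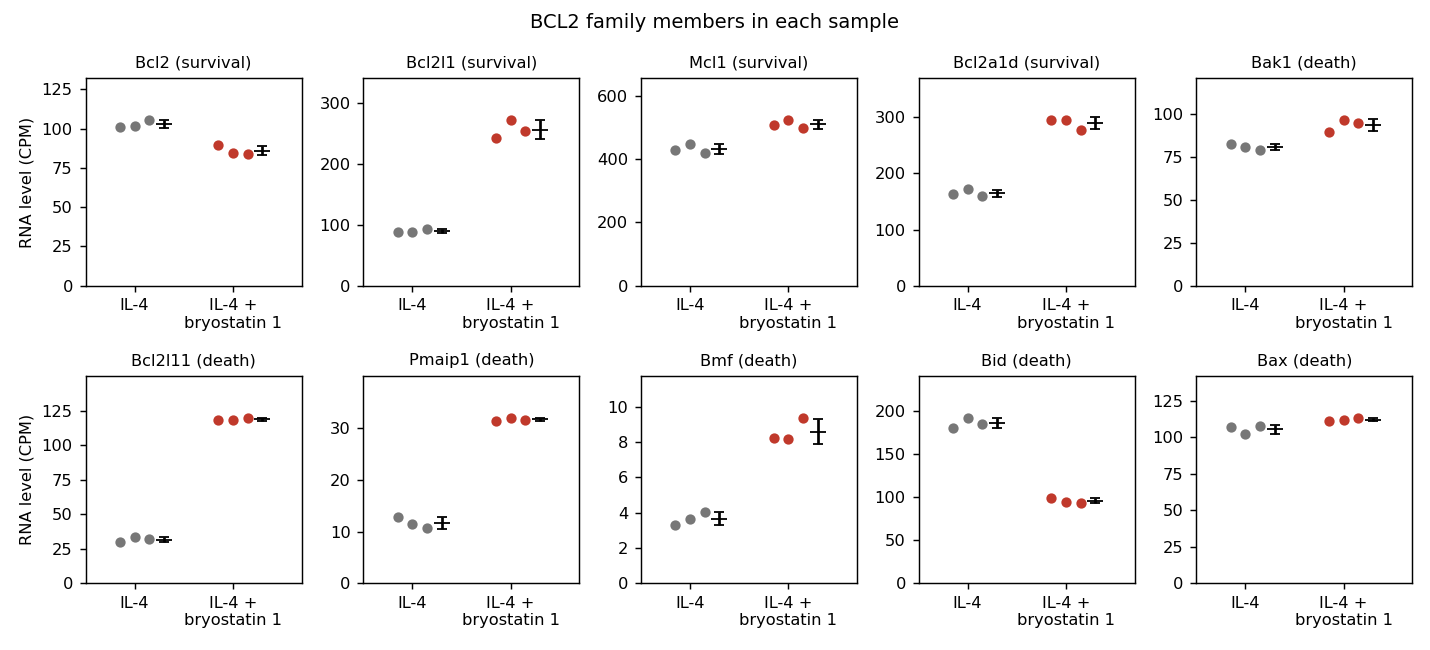
RNA level of each BCL2 family member in CPM (vertical axis from 0, one panel per gene) in the 3 IL-4 samples (grey) and the 3 IL-4 + bryostatin 1 samples (red), with the mean ± SD in black beside the points. Bcl2 and Bid lie lower with bryostatin 1 and the other 8 members lie higher, with groups close together for Bax and Bak1.

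Among the survival genes, Bcl2l1 moved most. The IL-4 samples held 87.7, 88.4 and 92.5 CPM of this gene, the treated samples 241, 272 and 254 CPM. The groups were far apart, and Bcl2l1 rose 2.85-fold (log2 fold change 1.51 ± 0.04 SE, n = 3 per group, adjusted p = 5.7e-15 by edgeR). A larger absolute change was seen for 5.51% of all genes.

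Bcl2a1d encodes one of the mouse copies of A1, a short-lived survival protein of activated lymphocytes. It stood at 163, 171 and 159 CPM in the controls against 295, 295 and 277 CPM in the treated samples. Every treated sample was above every control sample, and Bcl2a1d rose 1.75-fold (log2 0.81 ± 0.04 SE, adjusted p = 5.0e-12 by edgeR). The value carries an uncertainty of counting, because the mouse genome holds near-identical copies. Of the 100-base windows of the Bcl2a1d transcript, 41.0% occur exactly in Bcl2a1a and 29.2% in Bcl2a1b, and none in Bcl2a1c. The copy Bcl2a1b rose less, with a log2 fold change of 0.36 from a mean of 193.9 ± 6.83 CPM to 249.5 ± 9.40 CPM (SD). With Bcl2a1a, Bcl2a1b and Bcl2a1d added together the log2 ratio of the means was 0.56.

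Mcl1, whose protein is needed for survival of B cells at many stages and turns over quickly, had the highest counts of the family. Controls measured 430, 449 and 418 CPM, and treated samples 507, 524 and 499 CPM. The difference was small but larger than the spread, as Mcl1 rose 1.18-fold (log2 0.24 ± 0.04 SE, adjusted p = 2.5e-05 by edgeR).

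Bcl2 was the survival member that went the other way. Its 3 control levels were 101, 102 and 106 CPM and its 3 treated levels 89.4, 84.6 and 84.0 CPM, without overlap. Bcl2 fell by 0.26 ± 0.04 (SE) on the log2 scale (adjusted p = 2.4e-05 by edgeR). The changes of Bcl2 and Mcl1 sat in the middle of all genes, with a larger absolute change for 48.4% and 51.0% of them. Neither gene passed a test against a fold of 1.2, with adjusted p-values of 0.629 for Bcl2 and 0.868 for Mcl1 by edgeR's glmTreat.

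Among the death genes, the BH3-only members Bcl2l11, Pmaip1 and Bmf had the largest rises. Bcl2l11, which encodes BIM, was at 30.0, 33.2 and 31.9 CPM in the controls and at 118, 118 and 120 CPM after bryostatin 1. This was the largest change of the 10 members, and Bcl2l11 rose 3.74-fold (log2 1.90 ± 0.04 SE, adjusted p = 2.7e-16 by edgeR). A larger absolute change was seen for 3.69% of all genes.

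Pmaip1 encodes NOXA, a BH3-only protein that binds chiefly MCL1 and A1. Control samples had 12.8, 11.4 and 10.7 CPM and treated samples 31.4, 32.0 and 31.6 CPM. The treated samples were within 1 CPM of each other, and Pmaip1 rose 2.72-fold (log2 1.44 ± 0.07 SE, adjusted p = 7.2e-12 by edgeR). Bmf, a BH3-only gene whose protein is held by the cytoskeleton, was the least abundant member. IL-4 alone gave 3.31, 3.65 and 4.06 CPM, and adding bryostatin 1 gave 8.22, 8.15 and 9.38 CPM, from 68 to 208 counts per sample. Bmf rose 2.33-fold with a wider error (log2 1.22 ± 0.12 SE, adjusted p = 1.1e-07 by edgeR).

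Bid was the death member that fell. BID is activated when caspase-8 cuts it, and so links death receptors to mitochondria. Controls stood at 181, 192 and 185 CPM, treated samples at 99.3, 94.6 and 93.4 CPM. The level was 1.94-fold lower with bryostatin 1 (log2 fold change -0.96 ± 0.04 SE, adjusted p = 5.1e-13 by edgeR), and a larger absolute change was seen for 11.3% of all genes.

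The effectors had the smallest changes of the 10 members. Bak1 was found at 82.8, 80.7 and 79.3 CPM in controls and at 89.5, 96.7 and 94.8 CPM in treated samples. Bak1 rose 1.16-fold (log2 0.21 ± 0.04 SE, adjusted p = 2.6e-04 by edgeR), which did not pass against a fold of 1.2. For Bax the control levels were 107, 102 and 108 CPM and the treated levels 111, 112 and 114 CPM. The samples did not overlap, yet the log2 fold change of 0.09 ± 0.04 (SE) missed the threshold (adjusted p = 0.0543 by edgeR). Bax lay near it, since 3 of the 17 other ways of processing brought its adjusted p under 0.05, the lowest being 0.0142 by edgeR with total counts as the scaling. The 6 members that passed the test against a fold of 1.2 were Bcl2l1, Bcl2a1d, Bcl2l11, Pmaip1, Bmf and Bid, beside 28.4% of all genes.

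**Figure D2:**
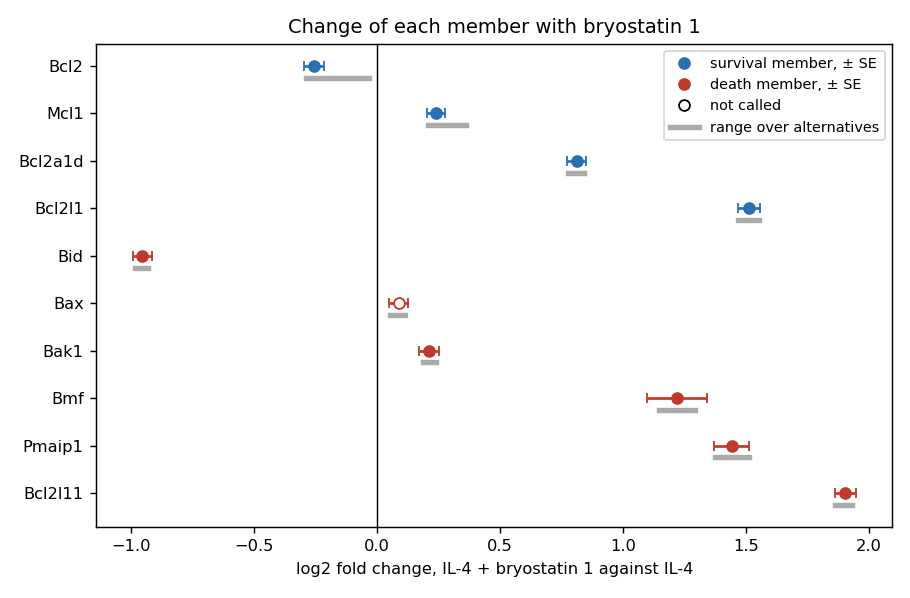
Log2 fold change of each member, IL-4 + bryostatin 1 against IL-4 (horizontal axis), for survival members (blue) and death members (red), with bars for the SE of the edgeR fit and an open point for Bax, which did not pass. Grey lines give the lowest and highest value over all the alternatives. They are widest for Bcl2, whose value ran from -0.29 to -0.03. Mcl1, from 0.21 to 0.36, Bmf, from 1.15 to 1.29, and Pmaip1, from 1.38 to 1.51, come next.

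Levels of different genes were compared per length, as CPM per kilobase of transcript. For Bcl2l1, Bid, Bax, Bak1 and Bmf no length was at hand for the row used above, and the best counted row with a known length was taken instead. With IL-4, Bcl2a1d was the highest at 191 ± 7.15 (SD), followed by Mcl1 at 126 ± 4.51 and Bax at 122 ± 3.54, whose samples overlapped. Bid came next at 84.6 ± 2.73, then Bcl2l1 at 34.7 ± 1.02 and Bak1 at 33.9 ± 0.733, which overlapped as well. Bcl2 followed at 14.3 ± 0.347, Bcl2l11 at 6.30 ± 0.321, Pmaip1 at 4.28 ± 0.395 and Bmf at 0.788 ± 0.0766. With bryostatin 1 the first 3 places were kept, at 335 ± 12.1 for Bcl2a1d, 149 ± 3.81 for Mcl1 and 129 ± 1.47 for Bax. Bcl2l1 stood above Bid, at 99.3 ± 5.94 against 43.6 ± 1.35 CPM per kilobase, where it had been below it with IL-4. Bcl2l11, at 23.6 ± 0.207, likewise stood above Bcl2, at 11.96 ± 0.409, and the samples of Bcl2 overlapped those of Pmaip1 at 11.6 ± 0.110. Bak1 was at 39.2 ± 1.57 and Bmf remained last at 1.85 ± 0.150. The order of Bcl2a1d depends on how reads were shared among the A1 copies.

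**Figure D3:**
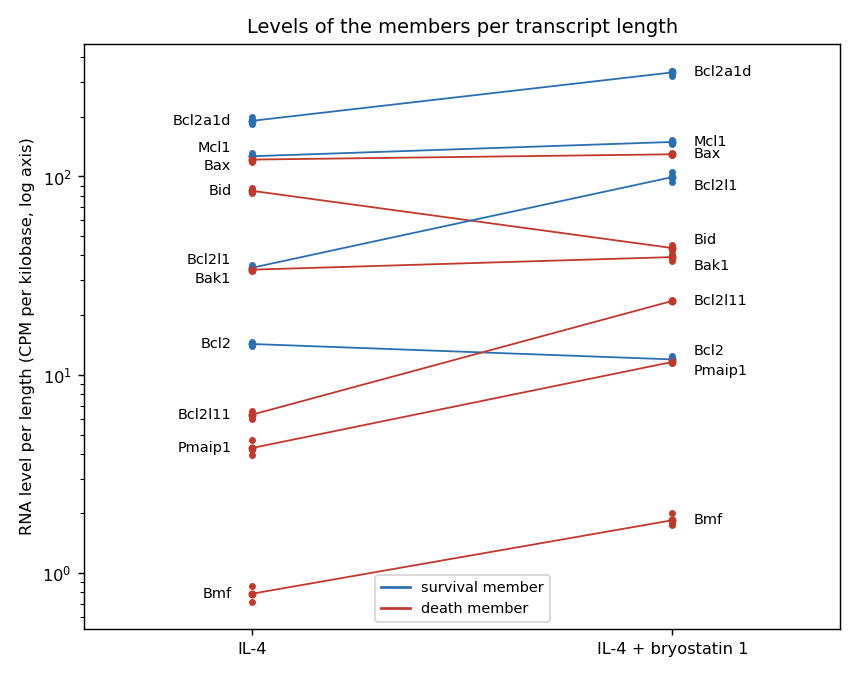
RNA level per transcript length (CPM per kilobase, log axis) of the 10 members with IL-4 (left) and with IL-4 + bryostatin 1 (right), with a point for each sample and lines joining the group means in blue for survival and red for death members. The line of Bcl2l1 crosses that of Bid, and the line of Bcl2l11 crosses that of Bcl2.

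Seen as parts of the reads assigned to the 10 genes, not corrected for length, Bcl2l1 made up 7.41% with IL-4 and 16.0% with bryostatin 1, and Bcl2l11 2.62% and 7.42%. The part of Bid was 15.4% with IL-4 and 5.98% with bryostatin 1. Mcl1 held the largest part in both groups, 35.8% and 31.9%.

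Whether the family as a whole leaned towards survival or death was described by the mean log2 CPM of the 4 survival members minus that of the 6 death members. This difference was 2.15, 2.17 and 2.15 in the IL-4 samples and 2.10, 2.12 and 2.02 in the bryostatin 1 samples. The mean of each side was higher with bryostatin 1 by nearly the same amount, so the difference moved by -0.08 on the log2 scale, although the groups did not overlap. Without IL-4 + bryostatin 1 replicate 3, the sample with the lowest difference, it moved by -0.05, and without Bcl2a1d, the member with near-identical copies, by -0.16.

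That small net shift was the sum of large and opposite movements between single genes. Of the 24 ratios of a survival to a death member, 12 were lower in every bryostatin 1 sample than in every IL-4 sample, 9 were higher and 3 overlapped. All 24 were built from the same 10 members, none of which overlapped between groups on its own, as held for 63.5% of all genes. The share of separated ratios over all gene pairs was not computed, so the count shows nothing particular to the family. The ratio to Bcl2l11 was lower with bryostatin 1 for all 4 survival genes, but only Bcl2 ended below Bcl2l11. The log2 ratio of Bcl2 to Bcl2l11 was 1.75, 1.62 and 1.73 with IL-4 and -0.40, -0.48 and -0.51 with bryostatin 1, a change of -2.16 and the largest drop of the 24. The ratio of Mcl1 to Bcl2l11 changed by -1.67, that of Bcl2a1d by -1.09 and that of Bcl2l1 by -0.39.

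All 4 survival genes, in turn, gained on Bid. The log2 ratio of Bcl2l1 to Bid changed by 2.47, the largest gain, from -1.05 ± 0.06 (SD) with IL-4 to 1.42 ± 0.12 with bryostatin 1. Against the effectors, Bcl2l1 gained 1.43 on Bax, and Bcl2a1d gained 0.72 on Bax and 0.60 on Bak1. The ratio of Bcl2 to Bax changed by -0.35 and that of Bcl2 to Bak1 by -0.47. The overlapping ratios were Mcl1 to Bax, Mcl1 to Bak1 and Bcl2l1 to Pmaip1, with changes of 0.15, 0.03 and 0.07. These ratios combine the members' own values and are given as a description.

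**Figure D4:**
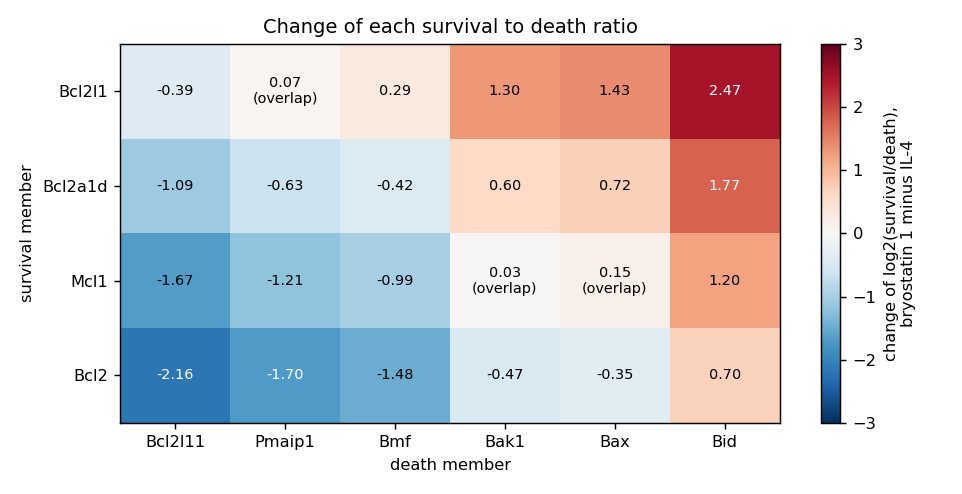
Change of the log2 ratio of each survival member (rows) to each death member (columns), IL-4 + bryostatin 1 minus IL-4, with red for a gain of the survival gene and blue for a loss. The Bcl2l11 column is negative and the Bid column positive for all 4 survival genes, and the 3 ratios whose samples overlap between groups are marked.

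The count table lists several transcripts per gene, 43 rows for the 10 members, and reads common to transcripts may be counted in more than one row. In a fit over all 69175 testable rows, of which 62.2% passed, the rows of each of 9 members moved in the same direction and all passed. The log2 fold changes ran up to 1.54 over 10 Bcl2l1 rows that differed by less than 0.05, from 1.88 to 1.91 over 9 Bcl2l11 rows, from 1.22 to 1.24 over 7 Bmf rows and from 0.24 to 0.37 over 3 Mcl1 rows. The 5 Bid rows ran from -0.96 to -0.95. The 3 Bax rows passed in this fit, at a log2 fold change of 0.09.

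Bcl2 was the exception. Its transcript variant 1, which is the row used above, fell by 0.26 on the log2 scale, whereas variant 2 had a log2 fold change of -0.02 that did not pass (adjusted p = 0.788 by edgeR). Variant 2 amounted to 24.9%, 22.9% and 23.2% of the variant 1 counts with IL-4 and to 29.4%, 26.9% and 26.9% with bryostatin 1. The groups did not overlap, with an exact two-sided permutation p = 0.1, the smallest that 3 against 3 samples allow.

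The stretch before the transcription start was read for the 9 members whose RefSeq promoter (GRCm38.p6) was used here, 14 promoters in all. Motifs of factors known to follow protein kinase C, CD40, IL-4 or PI3K signals were searched on both strands in the 250 bases before the start. AP-1 (TGANTCA) occurred in 6.75% of 32851 mouse promoters, CRE (TGACGTCA) in 1.55%, STAT (TTCNNNGAA) in 7.02%, FOXO (TGTTTAC) in 3.17%, ETS (CCGGAAGT) in 2.88% and the NF-kB motif in 7.25%. Among the members, 1 promoter of Bcl2l11 held a FOXO match beginning 227 bases before the start, Bcl2a1d an AP-1 match 114 bases before it, and 1 promoter of Bcl2l1 an NF-kB match 242 bases before it, in a window that lies wholly over an annotated exon inside the gene. CRE, STAT and ETS matches were found in none of the 14, and Bcl2 held no match of any kind. A match is a description of letters and was not tested as a binding site.

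Some of these regions are shown because they belong to the member that rose most, the A1 gene with its AP-1 match, and the survival member that fell. They lie upstream of the gene at chr2:128125788-128126037 on the plus strand for Bcl2l11, chr9:88731915-88732100 on the minus strand for Bcl2a1d and chr1:106714291-106714540 on the minus strand for Bcl2, all in GRCm38.p6. Capitals mark the FOXO match, here on the opposite strand, in Bcl2l11 and the AP-1 match in Bcl2a1d. The Bcl2a1d region leaves out the last 64 bases before the start, which an annotated exon covers.
Bcl2l11: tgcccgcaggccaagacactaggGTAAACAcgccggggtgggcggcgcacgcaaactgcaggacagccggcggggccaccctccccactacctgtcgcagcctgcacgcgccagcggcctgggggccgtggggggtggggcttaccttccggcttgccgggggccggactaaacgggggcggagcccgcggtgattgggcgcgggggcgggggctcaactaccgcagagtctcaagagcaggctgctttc
Bcl2a1d: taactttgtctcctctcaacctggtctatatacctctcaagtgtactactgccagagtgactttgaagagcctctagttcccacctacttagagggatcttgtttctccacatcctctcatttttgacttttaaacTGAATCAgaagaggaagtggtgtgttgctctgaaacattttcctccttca
Bcl2: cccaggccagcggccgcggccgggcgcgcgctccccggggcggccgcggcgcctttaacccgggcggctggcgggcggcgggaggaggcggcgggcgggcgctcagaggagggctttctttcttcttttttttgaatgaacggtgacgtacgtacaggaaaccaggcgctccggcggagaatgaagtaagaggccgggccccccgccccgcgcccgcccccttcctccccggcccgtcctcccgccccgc

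G and C made up 72.0% of the Bcl2l11 region and 74.8% of the Bcl2 region, against 41.9% of the Bcl2a1d region. These values describe the printed regions only, and a link to the direction of change was not tested.

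Other genes of the family were mostly higher or did not pass. Of 16 listed, 10 were tested, and 6 rose while none fell and 4 did not pass, with a median log2 fold change of 0.25. Of all genes tested, 30.1% were higher and 28.0% lower. Bbc3, which encodes the BH3-only protein PUMA, rose from 9.18 ± 0.241 to 17.9 ± 1.15 CPM (SD), a log2 fold change of 0.97. Among those that did not pass was Bcl2a1a, whose log2 fold change of -1.31 became 2.16 without IL-4 replicate 3. Bnip3 and Bnip3l, whose proteins act in removal of mitochondria, rose by 1.18 and 0.67. Bcl2l13, a related mitochondrial protein, rose by 0.13 and Bcl2a1b by 0.36 as above. Bcl2l2, a further survival gene, was at 217 ± 10.2 CPM in controls and 206 ± 2.18 CPM in treated samples and did not pass (adjusted p = 0.124 by edgeR), and Bad, a BH3-only gene, was at 15.6 ± 1.61 and 14.9 ± 0.788 CPM (adjusted p = 0.564). The 6 untested genes had at most 12 counts in any sample, including Hrk with at most 1, Bok with at most 2 and Bcl2l10 with 0.

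The machinery below the mitochondria changed in both directions. Of 17 genes of the apoptosome, caspases and mitochondrial release, 9 rose, 5 fell and 3 did not pass, with a median of 0.12. Over all genes the shares were 30.1% higher and 28.0% lower. Vdac1, a channel of the outer membrane, rose by 1.06 on the log2 scale, from 209 ± 13.0 to 434 ± 11.1 CPM. Casp9, the initiator that the apoptosome activates, fell by 0.57, Casp6 fell by 0.63 and Dffb, the nuclease that cuts DNA in dying cells, fell by 0.51.

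The genes listed as caspase inhibitors and their relatives were mostly lower. Of 7 genes, 6 fell, none rose and 1, Naip5, did not pass, with a median of -0.32 beside 28.0% of all genes lower. Birc2 and Birc3, the ubiquitin ligases cIAP1 and cIAP2 of the CD40 and TNF receptor pathways, fell by 0.78 and 0.65, from 180 ± 2.60 to 104 ± 4.66 CPM and from 299 ± 10.5 to 190 ± 3.84 CPM. Xiap, which binds caspases directly, fell by 0.34, and Birc5, which also serves in cell division, fell by 0.32. Birc6 fell by 0.22, but with its least counted row the value was 0.00 (adjusted p = 0.974 by edgeR), and Xiap did not pass with that row either (adjusted p = 0.0645).

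Of 10 genes of the death receptor pathway, 9 were tested, of which 3 rose, 4 fell and 2 did not pass, with a median of -0.03. Beside them, 30.1% of all genes were higher and 28.0% lower. Tnfrsf10b, the mouse TRAIL receptor, rose 3.12-fold, from 10.9 ± 0.337 to 34.1 ± 1.84 CPM (log2 1.64 ± 0.07 SE). Fas rose by 0.41 and Tnfaip3, a brake on NF-kB, by 0.45. Fadd, the adaptor that joins these receptors to caspase-8, fell by 0.59, and Cyld, a deubiquitinase, fell by 0.27.

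Genes known to act upstream of the family changed in both directions. Of 29 listed, 28 were tested, and 18 rose, 5 fell and 5 did not pass, with a median of 0.26. Among all genes, 30.1% were higher and 28.0% lower. Ddit3, which encodes the stress factor CHOP and can activate Bcl2l11, rose by 1.74, from 14.2 ± 0.903 to 47.4 ± 1.31 CPM. Stat5a, a transcription factor that can activate Bcl2l1, rose 2.29-fold, from 107 ± 1.66 to 246 ± 7.51 CPM. Pim2, a survival kinase, rose by 0.84. Relb, a subunit of NF-kB, fell by 0.67, and Fbxw7, part of a ubiquitin ligase that targets MCL1, fell by 0.65. Atf3, named after its values were seen because it stands apart from the list and is below the mean level used for naming, went from 0.532 ± 0.173 to 8.88 ± 0.325 CPM (log2 fold change 4.04 ± 0.18 SE, adjusted p = 2.3e-12 by edgeR). The lists were drawn up by function, and nothing particular to any list follows from these counts.

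**Figure D5:**
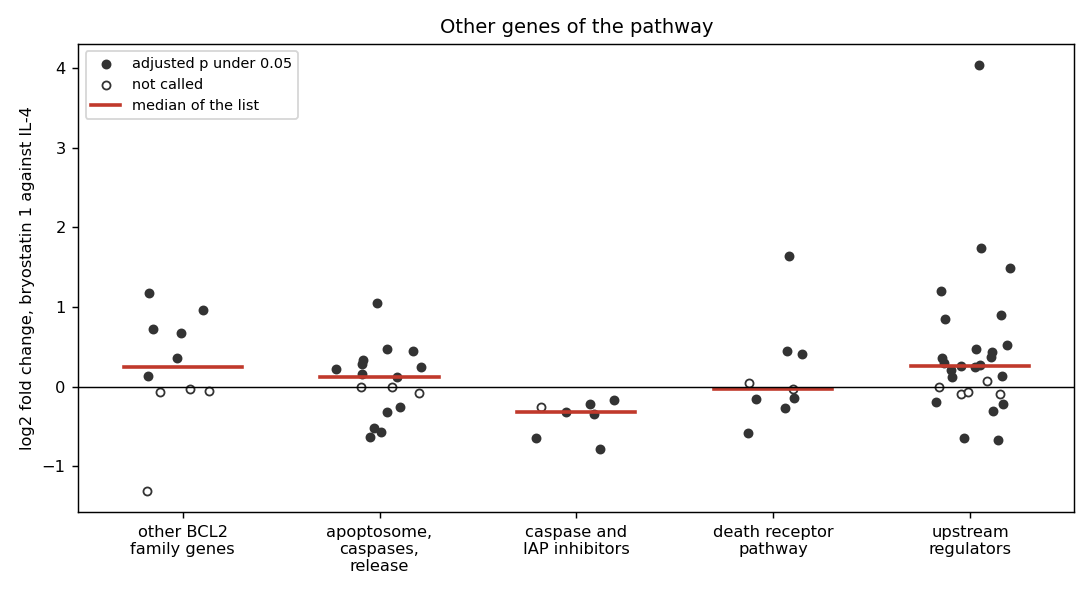
Log2 fold change, IL-4 + bryostatin 1 against IL-4 (vertical axis), of each tested gene of 5 pathway lists, filled where the adjusted p was under 0.05 and open where it was not, with the median of each list as a red line. The 7 genes listed as caspase inhibitors and their relatives all lie below 0, and the single point near 4 is Atf3. The open point lowest in the first list is Bcl2a1a, whose value rests on 1 IL-4 sample.

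Across all 6 samples, genes with the pattern most like those of the extreme members were sought among 10074 genes that averaged 5 CPM or more, by the Euclidean distance of log2 CPM centred on each gene. Nearest to Bcl2l11 were Uprt at a distance of 0.079, Tnfsf9 at 0.130 and Pacsin1 at 0.131. Nearest to Bid were AW112010 at 0.064, B2m at 0.067 and Lbh at 0.071. With 2 groups and 6 samples, the distance mainly reflects the size of the group difference, as B2m changed by -0.98 and Uprt by 1.94 on the log2 scale.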

How the data were processed

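Per the labels and the study's methods, RNA of 6 B cell samples was made into strand-marking libraries and sequenced as paired reads. The authors deposited raw counts per transcript row, made with cutadapt and sickle for trimming, HISAT2 for alignment, SAMtools for file handling and featureCounts for counting. The genome build, annotation, strand setting and tool versions were not given in the sources used here, so no coordinates are given for counted rows. The same table holds the authors' own results, deposited as mean log2 level, log2 fold change, p-value, q-value, rank and call from their test between the groups, none of which was used. Every per-sample column was mapped.

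The members and lists were chosen with earlier results of these data known. One row per gene, the one with the highest mean, was taken. Genes with a minimum count of 10 in edgeR's filterByExpr (total of at least 15) were kept, 13863 in all. Scaling followed the study's approach: TMM factors recomputed in 3 rounds without genes at an adjusted p under 0.1, at least 5% of them. The test was edgeR 4.0.16 quasi-likelihood (R 4.3.3), 2 groups with no covariate, Benjamini-Hochberg adjustment over all genes and a threshold of 0.05, with 4 residual degrees of freedom per gene before sharing. CPM used the scaled library sizes, and 0.5 CPM was added before logs for distances. The common biological coefficient of variation was 3.88%, and the depth of 19959971 to 24896427 counts per sample limits precision mainly for Bmf. Samples of a group differed beyond counting noise, since the chi-square per gene between them ran from 2.31 to 4.87, and all 6 were kept as separate samples. Transcript lengths came from a GENCODE mouse annotation matched by RefSeq accession.

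Alternatives were other scalings, DESeq2 1.42.0, count filters, a replicate block, each sample left out, other rows per gene, a fold of 1.2 by glmTreat and a threshold of 0.01. Genes named beside the members were up to 5 per list, those with the largest absolute change among genes that passed with a mean of at least 5 CPM, and 1 gene that met this rule is not reported here. Figures used matplotlib 3.10.9.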

Additional observations from a re-analysis of the deposited data

How the results depend on the processing

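Over 17 alternatives, the calls of Bcl2l1, Bcl2a1d, Bcl2l11, Pmaip1, Bid and Bmf kept their direction and side of the threshold, and no member's call changed when any 1 sample was left out. Against a fold of 1.2, a stricter question by construction, 1971 genes were higher and 1963 lower, in place of 4175 and 3880. Under that test Mcl1, Bak1 and Bcl2 no longer passed (adjusted p of 0.868, 1.0 and 0.629 by edgeR), so that 0 survival members were lower. The counts were then 3 higher and 3 lower for apoptosome genes, and 3 lower for the list of caspase inhibitors and their relatives. They were 1 lower for death receptor genes, and 11 higher and 2 lower for upstream regulators. With the least counted row of each gene, 0 survival members were lower (Bcl2 -0.03, adjusted p = 0.727) and Birc6 was at 0.0034. Among the other family genes, 1 was lower without a filter on low counts and 1 with summed rows, where the main count was 0, and 0 to 2 were lower with 1 sample left out. Bcl2a1a, which was lower without a filter and without IL-4 replicate 1 or 2, ran from -1.86 to 2.16, at 2.16 without IL-4 replicate 3. The difference of survival and death members was -0.16 without Bcl2a1d and ran from -0.10 to -0.05 with 1 sample left out. The cause of these shifts was not tested.

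Replicate numbers were shared by both groups. Samples of the same number deviated together weakly, with correlations of 0.142, 0.052 and 0.044. IL-4 replicate 3 correlated as well with bryostatin 1 replicate 2 (0.046) as with its own number. The remaining correlations between different numbers were lower, from -0.091 to 0.014. The main fit did not take the numbers as pairs, and whether they are pairs was not tested. The fit with a replicate block called 4273 genes higher and 4020 lower, and 5 death members higher, as Bax then passed (adjusted p = 0.0455 by edgeR). Bax also passed with total counts (0.0142) and with at least 10 counts in each library (0.0429). Other scalings moved the median of all genes to between -0.01 and 0.03. Depth limits mainly Bmf and the untested family genes.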

Other observations

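The A1 copy Bcl2a1a, chosen after its values were seen, had 19, 16 and 574 counts in the IL-4 samples and 106, 83 and 66 in the bryostatin 1 samples. IL-4 replicate 3 stood far apart from the other samples of its group for this gene, while Bcl2a1d and Bcl2a1b did not differ in that way, at 3489 and 4224 counts in that sample. The log2 fold change was -1.31 over all samples (adjusted p = 0.147 by edgeR) and 2.16 without that sample (adjusted p = 3.05e-07). Without IL-4 replicate 1 it was -1.84 (adjusted p = 0.0156), and without IL-4 replicate 2 it was -1.86 (adjusted p = 0.0265).

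Among the effector genes, a larger absolute change than that of Bax was seen for 79.5% of all genes, and than that of Bak1 for 55.8%.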
